A study of Mus musculus with 4 samples.

Results

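The regions described here are CTCF-bound stretches of the mouse genome that were called in posterior trunk, brain and proximal forelimb and were not called in distal forelimb. They were selected by the peak calls alone: peaks of the 4 deposited lists that shared at least 1 base were joined into union regions, and a region was kept when it held a peak of each of the 3 lists and none of the distal forelimb list. This gave 3469 of 121759 union regions on chromosomes 1 to 19, X and Y, which is 2.85% of them. Read against the 55126 regions that the other 3 tissues all held, distal forelimb lacked 6.29%. The count and share fell to 1872 and 3.70% with pileups scaled to the shallowest list, to 1871 and 3.69% with lists of equal length, and to 1826 and 3.59% with −log10 q of at least 5 in the 3 holding lists. The mirror set, called in posterior trunk, brain and distal forelimb and missing from proximal forelimb only, held 3539 of 55196 regions, or 6.41%. A further 51657 regions were called in all 4 tissues. The calls chose the members, so these counts are a description and carry no test.

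The libraries came from CTCF ChIP-seq, in which DNA bound by a protein is pulled down with an antibody (here from Active Motif) and sequenced, on wild-type mouse embryos of strain B6CBAF1, with 1 library per tissue. Posterior trunk at embryonic day (E) 10 came from about 30 embryos staged from E9.75 and held tailbud, presomitic mesoderm and a few pairs of somites. Brain was a pool of telencephalons of 6 embryos at E12.5, and the distal and proximal forelimb libraries, both of E12.5, are titled as re-analysed data. No group carried a mutation or a treatment, and each tissue was a mixture of cell types. Since no tissue was repeated, differences between tissues have no replicate error, and a missing call can mean a weaker site, fewer cells that hold it, or a library that sampled it less, which cannot be told apart.

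CTCF is a zinc-finger protein that recognises a long, non-palindromic DNA motif and stops loop-extruding cohesin there, so that many of its sites lie at chromatin loop anchors and at borders of chromatin domains. Strong sites tend to be held in most tissues, while weaker ones differ more between cell types. In the limb buds the distal part forms the hand and the proximal part the upper and lower arm, and CTCF sites lie in and around the Hox clusters that pattern both.

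Sequence was at hand for the members that overlapped a gene's promoter window, taken as the 250 bases before to 50 bases after a RefSeq gene start (GRCm38.p6, the assembly of mm10). The stretches of 61 bases below show what the DNA at such members looked like, and are written 5′ to 3′ on the strand of the gene. Capitals mark a match to a 12-position CTCF core consensus that lay within 50 bases of the members' summit, the place of highest read pileup. The first 5 are the strongest members with such a match whose stretch ended before the gene start, and were chosen after the matches were seen. The last 2, without capitals, come from the strongest promoter members that had their summit in the window and no match near it.
Gpr3, chr4:133212712-133212772, minus strand: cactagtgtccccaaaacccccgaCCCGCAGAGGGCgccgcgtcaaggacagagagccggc
Tsga10, chr1:37865093-37865153, minus strand: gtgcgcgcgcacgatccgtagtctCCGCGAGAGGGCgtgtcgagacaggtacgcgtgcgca
E130308A19Rik, chr4:59626019-59626079, plus strand: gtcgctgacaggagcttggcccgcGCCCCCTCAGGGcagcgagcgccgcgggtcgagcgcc
Kiz, chr2:146855805-146855865, plus strand: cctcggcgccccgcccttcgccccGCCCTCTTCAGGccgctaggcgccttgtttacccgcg
Ascc2, chr11:4637600-4637660, plus strand: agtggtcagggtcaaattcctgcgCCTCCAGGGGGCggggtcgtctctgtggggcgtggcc
9330182O14Rik, chr15:40134315-40134375, plus strand: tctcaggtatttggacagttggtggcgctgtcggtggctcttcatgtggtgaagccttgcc
Oser1, chr2:163419485-163419545, minus strand: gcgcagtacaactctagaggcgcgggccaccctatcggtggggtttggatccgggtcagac

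The Gpr3, Tsga10 and Ascc2 matches read along the printed strand, and those of E130308A19Rik and Kiz read on the opposite strand. At Gpr3, which encodes an orphan G-protein-coupled receptor, the centre of the match lay 6.5 bases from the summit, and the authors' folds over local background were 2.70 in posterior trunk, 3.52 in brain and 3.01 in proximal forelimb. At Tsga10, a gene of the sperm tail, the distance was 8.5 bases and the folds were 2.73, 4.09 and 4.27 in the same order. At Ascc2, a subunit of a transcription coactivator complex, the distance was 1.5 bases and the folds were 4.94, 3.20 and 3.75. The match sat 38.5 bases from the summit at E130308A19Rik and 46.5 bases from it at Kiz, which encodes a centrosome protein. The first 3 matches thus lay closest to the summit. Posterior trunk was the highest tissue at Ascc2, brain at Gpr3 and proximal forelimb at Tsga10.

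Members with promoter windows were few. Among the 3342 members on chromosomes with windows in the table, 124, or 3.71%, overlapped a window, against 3.64% of the regions missing from proximal forelimb only and 5.82% of regions called in all 4 tissues. Among weak regions called in all 4, with a lowest percentile under 25, the share was 4.87%. The 149 windows of the members belonged to 137 genes and had a median GC content of 61.7%. It was 60.2% in the mirror set, 60.7% at regions called in all 4 and 62.2% at the weak ones among these, and 52.7% over all 32851 windows. A short CTCF core was searched on both strands in 4 forms, the first of which is AGGGGGC, the second being AGATGGC, the third reading AGGTGGC and the last form being AGAGGGC. It was in 53 of the 149 windows (35.6%), against 27.6% of all windows, 34.7% at regions missing from proximal forelimb only 47.2% at regions called in all 4 and 39.3% at the weak ones among these. The longer consensus, which always contains the short core, was in 13 windows, or 8.72%, against 3.36% of all windows, 6% in the mirror set, 16.2% at regions called in all 4 and 3.95% at the weak ones among these. Within 50 bases of the summit lay 25 windows' short core and 9 windows' consensus. A match describes the letters of these windows and is not a measured binding site.

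The 8 strongest promoter members lay at 9330182O14Rik, Nme2, Oser1 with 2900093K20Rik, Dut, Lrrk2, 4930480C01Rik, Cdc25b and Thpo. Nme2 encodes a nucleoside diphosphate kinase, and the folds at its member were 6.42 in posterior trunk, 4.37 in brain and 5.24 in proximal forelimb. At Oser1 and 2900093K20Rik, which start on opposite strands within the same member, the folds were 8.02, 4.23 and 5.81. Dut, which encodes the dUTPase that keeps uracil out of DNA, had folds of 5.005, 4.123 and 4.987. Posterior trunk was the highest tissue at these 3 members. At Lrrk2, a kinase gene mutated in familial Parkinson's disease, proximal forelimb was highest instead, with 5.25 against 3.82 in posterior trunk and 4.198 in brain. Cdc25b, a phosphatase that drives entry into mitosis, had the same order, with 5.51 in proximal forelimb, 3.58 in posterior trunk and 3.99 in brain. Folds compare places within a list, and deeper libraries can reach other folds at the same site.

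The members were middling to weak sites in each list that held them. Each peak was given a rank percentile by sorting its list on p, from the weakest peak near 0 to the strongest at 100. Over the members its median was 45.1 in posterior trunk (quartiles 32.7 and 54.8), 25.1 in brain (16.1 and 34.4) and 15.96 in proximal forelimb (8.90 and 24.5). Regions called in all 4 had medians of 75.8, 65.0 and 59.4 in these lists. The highest percentile of any member was 76.3 in posterior trunk, 68.9 in brain and 51.6 in proximal forelimb, so no member was above percentile 80 in any tissue.

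**Figure D1:**
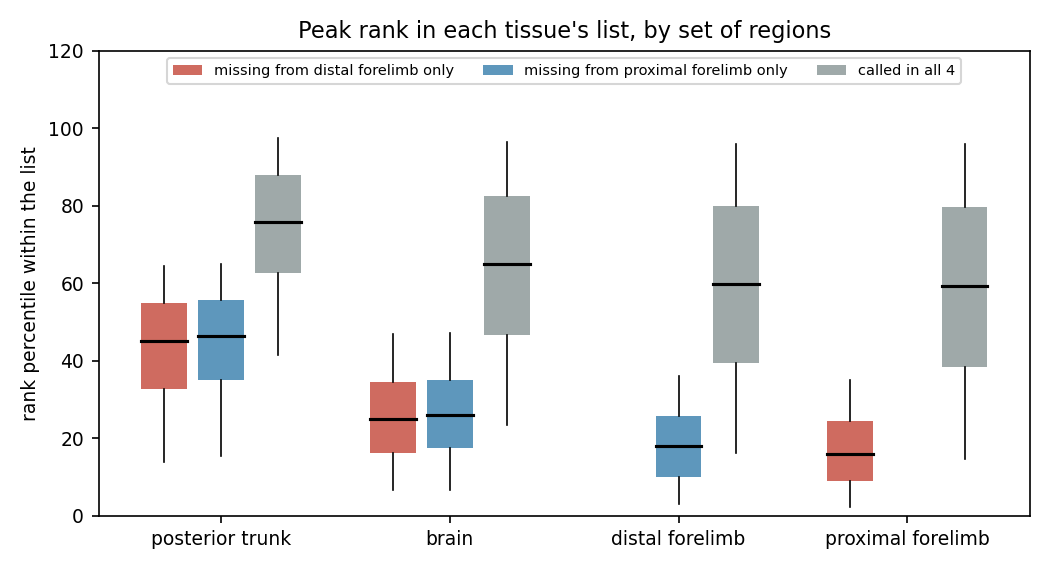
Rank percentile within each tissue's list (vertical axis, strongest peak at 100) for regions missing from distal forelimb only, regions missing from proximal forelimb only and regions called in all 4 tissues; boxes span the quartiles, black lines are medians and whiskers reach the 5th and 95th percentiles over regions. The medians of the distal forelimb-missing regions (45.1, 25.1 and 15.96) sit close to those of the mirror set and well under those of regions called everywhere.

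The mirror set ranked almost the same, with medians of 46.4 in posterior trunk, 26.0 in brain and 17.95 in distal forelimb. The median authors' fold of the members was 4.45 in posterior trunk, 3.35 in brain and 3.58 in proximal forelimb, and the highest single folds were 12.3, 11.1 and 8.06. In reads at the summit, the median pileup was 60 over a background of 11.9 in posterior trunk, 38 over 10.2 in brain and 23 over 5.40 in proximal forelimb. Relative to a depth of 1 in distal forelimb, the depth was 2.21 in posterior trunk, 2.02 in brain and 1.08 in proximal forelimb. Divided by relative depth, the median excess of pileup over background was 21.4 in posterior trunk, 13.6 in brain and 16.02 in proximal forelimb.

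Within a member the order of the tissues by percentile was usually that of the median percentiles. By median fold and by median excess per relative depth, proximal forelimb was above brain. The percentile was highest in posterior trunk, next in brain and lowest in proximal forelimb at 2101 members (60.6%). Proximal forelimb gave the lowest of the 3 percentiles at 2456 members (70.8%), brain at 851 (24.5%) and posterior trunk at 162 (4.67%). The lists differ in length, so the same site takes a different percentile in each. All 3 percentiles reached at least 25 at 520 members, or 15.0%, against 18.6% of the mirror set and 85.3% of regions called in all 4. They reached at least 50 at 1 member. Across members the ranks of different tissues were loosely related, with Spearman coefficients of 0.35 for posterior trunk and brain, 0.26 for posterior trunk and proximal forelimb and 0.29 for brain and proximal forelimb (n = 3469 regions, which share the same 3 libraries). Over regions called in all 4 these were 0.92, 0.88 and 0.94, over a wider range of ranks. Members were narrower than regions called in all 4, with a median width of 371 bases against 544, and as wide as the mirror set at 372.

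The stronger a region was in posterior trunk, the smaller the share that distal forelimb lacked. At percentiles up to 10 of the posterior trunk list, distal forelimb lacked 42.4% of the regions that the other 3 tissues held. It lacked 34.3% from percentile 30 to 40, 22.8% from 40 to 50, 13.0% from 50 to 60 and 4.57% from 60 to 70. From 70 to 80 the share was 0.246%, and above 80 it was 0. Proximal forelimb, measured against the regions held by the other 3, followed the same course, with 39.7% up to percentile 10, 24.9% from 40 to 50 and 0.444% from 70 to 80.

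**Figure D2:**
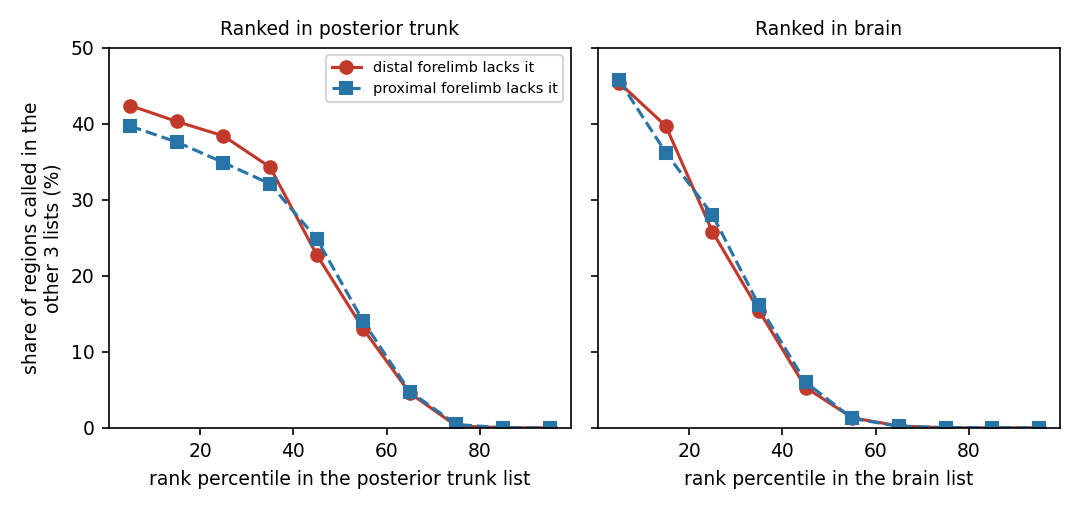
Share of regions lacking a distal forelimb call (circles) or a proximal forelimb call (squares) among those called in the other 3 lists (vertical axis, percent), by rank percentile in the posterior trunk list (left) or the brain list (right) in steps of 10. The curves for distal and proximal forelimb run close together and reach 0 or nearly 0 above percentile 80 in posterior trunk.

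At a like rank in posterior trunk the members ranked lower in the other lists, as a description of lists that the rule used. Between trunk percentiles 40 and 50, the 825 members had a median percentile of 24.2 in brain and 15.8 in proximal forelimb, while the 2790 regions called in all 4 had 33.8 and 26.9. The 926 regions of the mirror set had 25.1 in brain and 17.4 in distal forelimb in that band. At the threshold itself the difference was smaller. The 3469 regions called in all 4 with the weakest distal forelimb peak, at −log10 q from 1.31 to 6.24 and a median pileup of 20 there, had median percentiles of 50.3 in posterior trunk, 30.05 in brain and 20.4 in proximal forelimb, a few points above the members.

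The lists give no reads outside peaks, so the distal forelimb signal at a member is not known, only that it passed no threshold. What could be set was the highest pileup that would have gone uncalled there by p alone. It came from the member's background in proximal forelimb, the relative depth and the weakest p of the distal forelimb list. Its median over members was 13 reads, against 21.2 reads expected had distal forelimb held the site as proximal forelimb did. At that occupancy the Poisson chance of a call was at least 0.95 for 1969 members, or 56.8%. It reached 0.95 for 2506 members (72.2%) when the pileup came from posterior trunk and for 1293 (37.3%) when it came from brain, and for 795 members (22.9%) from each of the 3 lists. In the mirror set 1124 regions, or 31.8%, did so from each list. Relative depth could also be read from the median excess ratio at regions called in all 4. The members reaching 0.95 were then 2215 (63.9%) from proximal forelimb, 2441 (70.4%) from posterior trunk and 1844 (53.2%) from brain. From the distal forelimb pileup, the mirror set had 2421 regions (68.4%) by lowest background and 2220 (62.7%) by this ratio. The gap between members and mirror set thus depended on how depth was read. A pileup that was picked because it was called leans high, so these chances lean high near the threshold. The same pileups were used to choose the members, and the chances are a description.

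**Figure D3:**
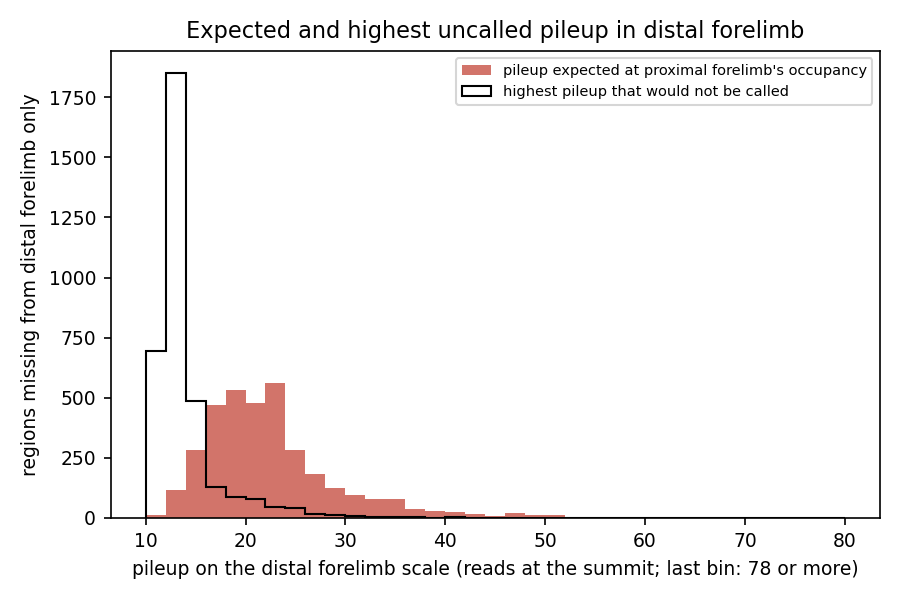
Number of regions missing from distal forelimb only (vertical axis) by pileup on the distal forelimb scale in reads (horizontal axis): filled bars show the pileup expected at the occupancy seen in proximal forelimb, and the outline the highest pileup that would not have been called by p alone. The outline centres on 13 reads and the filled bars on 21.2, and their ranges overlap.

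Read as a ratio, the highest pileup uncalled by p alone put an upper bound on the excess over background in distal forelimb. No peak in the lists was narrower than 200 bases. A narrower site of higher pileup may also have gone uncalled, and the bound leaves this out. At the median member the bound was 0.477 of the excess in proximal forelimb, and it was under 0.5 at 1968 members (56.7%). It takes the distal forelimb background to be that of proximal forelimb scaled by relative depth, which the lists cannot check at these regions. It also carries the counting error of the proximal forelimb pileup. Since members had to fall short of the distal forelimb threshold, a low bound follows from the rule, and it is given as a description.

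The summits of the members coincided between tissues. The median distance between summits was 17 bases for posterior trunk and brain, 23 bases for posterior trunk and proximal forelimb and 24 bases for brain and proximal forelimb. The largest of the 3 distances had a median of 35 bases, and lay within 50 bases at 2432 members (70.1%) and over 200 bases at 78. The mirror set had a median of 33 bases. Regions called in all 4 had 14 bases, but between trunk percentiles 40 and 50 they had 29 against 36 for members.

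Most members stood well apart from any distal forelimb peak. The nearest one lay at a median of 9.68 kb, with quartiles of 4.18 and 23.1 kb, against 10.7 kb from the mirror set to its nearest proximal forelimb peak. At 2 members a distal forelimb peak came within 100 bases, the closest at 31 bases, and at 118 it came within 500 bases. Joining peaks up to 500 bases apart left 3374 members.

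The 20 members with the highest lowest percentile over the 3 lists, from 41.1 to 50.2, were chosen for their strength in those lists, so their high pileups follow from that choice. Of the 20, 11 lay inside a gene span, and 5 had a posterior trunk background at least 2 times the lowest of that list.

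**Figure D4:**
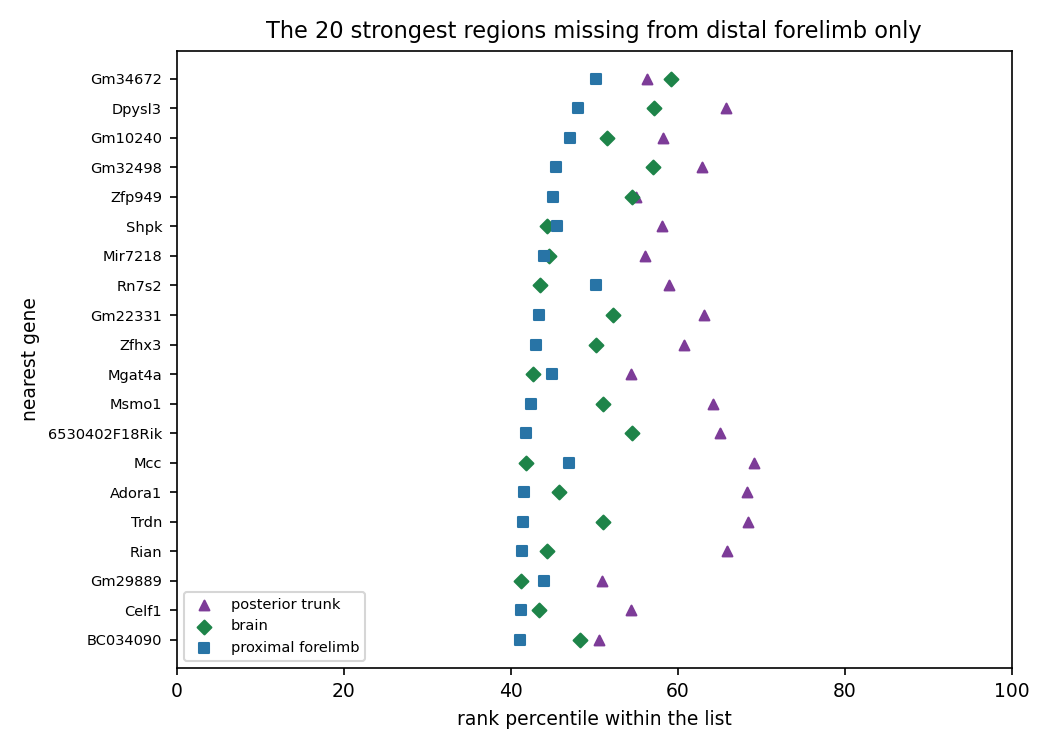
Rank percentile (horizontal axis) in posterior trunk, brain and proximal forelimb of the 20 strongest regions missing from distal forelimb only, each named by its nearest gene (vertical axis); 1 point per library. Proximal forelimb and brain values all lie between 40 and 60 and posterior trunk values all above 50.

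The strongest of them lay on chromosome 13 from 59289070 to 59289518, 33.5 kb from the predicted gene Gm34672. Its pileup was 78 reads in posterior trunk, 95 in brain and 49 in proximal forelimb, with folds of 6.55, 8.01 and 7.16. The proximal forelimb count of 49 has an exact 95% Poisson interval of 36.3 to 64.8, for counting error only, which is 33.4 to 59.7 on the distal forelimb scale, where up to 13 reads would have gone uncalled. Its nearest distal forelimb peak was 7.52 kb away, and its summits in the 3 tissues spread over 21 bases.

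The next lay inside Dpysl3, which encodes a growth-cone protein of neurons, on chromosome 18 from 43324189 to 43324552. Its pileup was 157 reads in posterior trunk, 119 in brain and 62 in proximal forelimb, over backgrounds of 25.3, 21.0 and 11.4, more than 2 times the lowest of each list. Up to 21 reads would have gone uncalled in distal forelimb, where 57.2 were expected at the proximal forelimb occupancy. The part of the raised background in the missing call was not tested. Zfp949, a zinc-finger gene, Rn7s2, a gene of the signal recognition particle RNA with near-identical copies in the genome, and Gm22331 had members of the same kind. Their proximal forelimb backgrounds were 17.4, 17.5 and 15.8 reads, and at Gm22331 a distal forelimb peak lay only 0.338 kb away.

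Others had a lower background than these. Near Gm32498, on chromosome 14 from 84257695 to 84258076, the folds were 8.92 in posterior trunk, 8.22 in brain and 6.62 in proximal forelimb, the 3 summits lay within 5 bases and the nearest distal forelimb peak was 180 kb away. In Mgat4a, which encodes an enzyme that branches N-glycans, the folds were 6.67, 5.46 and 6.98. Near Mir7218 they were 7.06, 5.77 and 6.80. In Shpk, a sugar kinase gene, they were 6.34, 5.06 and 6.52. Proximal forelimb was about as high as posterior trunk on the fold scale at these last 3 members, unlike in the members as a whole.

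In several other members of the 20, posterior trunk stood above the other tissues. Adora1 encodes an adenosine receptor, and its member, 744 bases wide, had folds of 8.38 in posterior trunk, 5.49 in brain and 5.95 in proximal forelimb. Trdn encodes triadin, a calcium-release protein of muscle, and its member had 8.69, 6.08 and 5.78. In Mcc, a gene mutated in colorectal tumours, the values were 8.71, 4.81 and 6.27, and in Msmo1, an enzyme of sterol synthesis, 8.02, 6.13 and 5.74. The member named for Zfhx3, a zinc-finger homeobox gene, lay 119 kb from it and had 6.50, 5.80 and 5.90. In Celf1, a regulator of RNA splicing, proximal forelimb was highest instead, with 5.44, 5.37 and 6.13. The remaining 4 of the 20, near or in Gm10240, 6530402F18Rik, Gm29889 and BC034090, had proximal forelimb folds of 6.61, 5.73, 6.80 and 4.50.

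One of the 20 lay in Rian, a maternally expressed noncoding RNA of the imprinted Dlk1 and Meg3 domain, in which CTCF binds in an allele-specific way at other sites. It ran from 109614433 to 109614933 on chromosome 12, with pileups of 134 reads in posterior trunk, 64 in brain and 42 in proximal forelimb and folds of 7.26, 4.84 and 5.38. Up to 15 reads would have gone uncalled in distal forelimb, against 38.7 expected, and the nearest distal forelimb peak was 1.56 kb away. From Meg3 to Mirg there were 19 union regions, of which 8 were called in all 4 tissues, 1 lacked distal forelimb only and 1 lacked proximal forelimb only. The span of Snrpn, the paternally expressed gene of another imprinted domain, held 9 union regions. Of these, 4 were called in all 4 tissues, 2 were members and none lacked proximal forelimb only. The member with the higher lowest percentile had folds of 8.80 in posterior trunk, 8.27 in brain and 4.83 in proximal forelimb. Over all regions distal forelimb lacked 6.29% of those held by the other tissues, and the counts in these spans are small.

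The 4 Hox clusters held 2 members among the 39 regions called in the other 3 tissues, or 5.13%, near the 6.29% over all regions. HoxA held none among 11 such regions and HoxD none among 10. HoxB held 1 among 13, at Gm53 on chromosome 11 from 96256049 to 96256437, with pileups of 128 reads in posterior trunk, 48 in brain and 22 in proximal forelimb and folds of 7.01, 4.90 and 3.36. HoxC held 1 among 5, within Hoxc6, a homeobox gene, on chromosome 15 from 103007289 to 103007709. Its pileups were 140, 36 and 32 reads, and its folds 6.73, 3.18 and 4.62. Posterior trunk was the highest tissue at both. For the HoxB member the chance of a distal forelimb call at the proximal forelimb occupancy was 0.941, and for the HoxC member 0.999. No Hox cluster held a region missing from proximal forelimb only.

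Around listed genes (their span with 50 kb on each side) there were 77 members over 11 lists of 274 genes in all, and each share is read against the 6.29% of all regions. Of the distal limb genes, 4 members stood among 119 regions held by the other 3 tissues, a share of 3.36%, while proximal forelimb lacked 10, or 8%. The distal limb members were weak. The member in Msx2, a homeobox gene of the limb margin, had folds of 2.61 in posterior trunk, 2.73 in brain and 3.32 in proximal forelimb, and the member 3.77 kb from Dlx6 and 5.65 kb from Dlx5, homeobox genes of the apical ridge, had 4.77, 3.14 and 2.90. Near Sall3, a zinc-finger gene, they were 3.04, 3.78 and 3.04. At −log10 q of at least 5 in the 3 holding lists no distal limb member was left, against 3.59% of all regions. Proximal limb genes had 5 members (3.79%). Among them was 1 in Meis2, a homeobox gene that marks proximal limb, with folds of 5.03, 3.46 and 3.09. It too ranked low in proximal forelimb, at percentile 6.92. Another lay 32.4 kb from Hand2, a posterior limb factor, with folds of 4.62, 3.35 and 3.68. At the stricter q, 2 proximal limb members were left (1.63%).

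**Figure D5:**
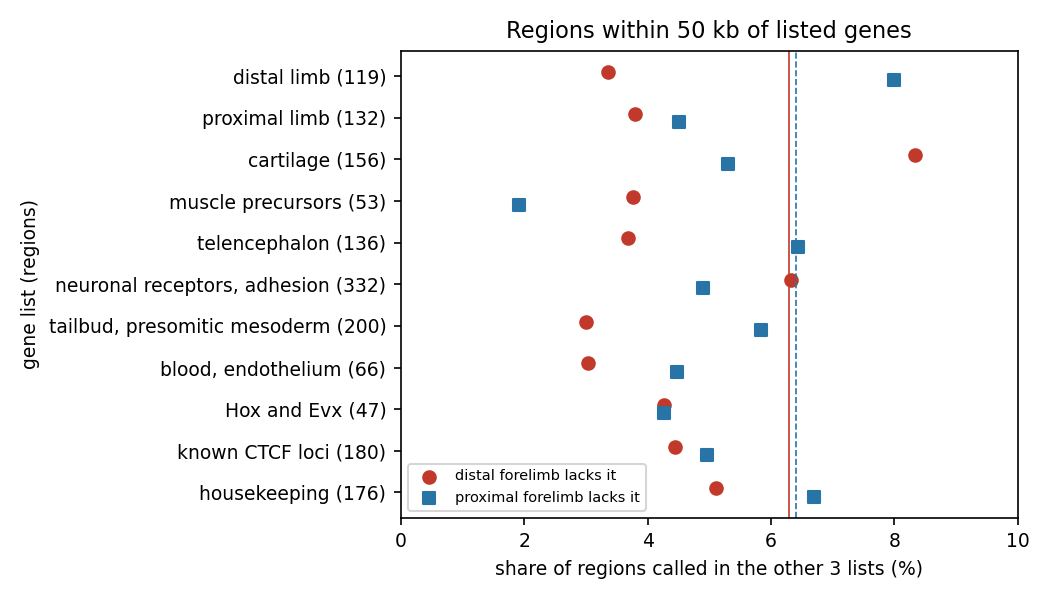
Share of regions lacking a distal forelimb call (circles) or a proximal forelimb call (squares) among those called in the other 3 lists (horizontal axis, percent), within 50 kb of the genes of 11 lists (vertical axis, with the number of regions held by posterior trunk, brain and proximal forelimb). Vertical lines mark 6.29% (solid) and 6.41% (dashed), the shares over all regions; each point rests on few regions.

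Cartilage genes had the highest share of the 11 lists, with 13 members (8.33%), against 5.30% missing from proximal forelimb only. In Sox5, which drives chondrocyte differentiation with Sox6 and Sox9, the gene span held 58 union regions. Of these, 21 were called in all 4 tissues, 4 were members and 1 lacked proximal forelimb only. These counts are small, and over all regions distal forelimb lacked 6.29% of those held by the other tissues. The first of the 4 members by lowest percentile had folds of 6.64 in posterior trunk, 3.58 in brain and 4.36 in proximal forelimb. The member that overlapped Thpo and Chrd, a secreted inhibitor of bone morphogenetic proteins, had 5.83, 5.08 and 4.56. That 1.06 kb from Hapln1, a link protein of cartilage matrix, had 3.45, 5.67 and 3.65, and brain was its highest tissue. The member 2.11 kb from Col9a1, a cartilage collagen, had 4.48, 3.29 and 3.08.

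Genes of neuronal receptors and adhesion had 21 members (6.33%). With −log10 q of at least 5 in the 3 holding lists they had 17 (5.35%), against 3.59% of all regions. Cartilage genes (9, 6.08%), known CTCF loci (8, 4.55%) and muscle precursors (2, 4.17%) were also above that share there. The other lists were below it. Nrxn3, a presynaptic adhesion gene, held a member with folds of 10.3 in posterior trunk, 5.67 in brain and 5.55 in proximal forelimb, 76.9 kb from the nearest distal forelimb peak. Cdh4, a cadherin of the nervous system, had 5.07, 3.64 and 3.87, and the member 0.208 kb from Plxna4, a semaphorin receptor, had 3.89, 3.26 and 3.95. Telencephalon genes had 5 members (3.68%), among them 1 in Pax6, a master regulator of eye and forebrain, with 4.49, 4.77 and 3.46. Tailbud and presomitic mesoderm genes had 6 (3.00%), among them 1 in Wnt5b, a secreted signal, with 4.91, 3.75 and 3.23. Muscle precursors had 2 (3.77%), with the member in Pax7, a marker of muscle stem cells, at 5.23, 4.12 and 5.50. Blood and endothelium had 2 (3.03%), Hox and Evx genes 2 (4.26%), known CTCF loci 8 (4.44%) and housekeeping genes 9 (5.11%). The spread of these shares rests on 2 to 21 members per list.

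Over the genome the members were spread without large clusters. Distal forelimb lacked from 5.28% of the regions held by the other 3 on chromosome 16 to 7.85% on chromosome 12, leaving aside chromosome Y with 2 members, and 6.62% on chromosome X. Members inside a gene span numbered 2214 (63.8%), against 61.2% of the mirror set and 62.4% of regions called in all 4. Between trunk percentiles 40 and 50 the order of members and regions called in all 4 turned, with 61.6% of members, 61.8% of the mirror set and 68.0% of regions called in all 4. Within 1 kb of either end of a gene lay 512 members (14.8%), against 13.4% of the mirror set and 18.3% of regions called in all 4. In the same band these were 14.8%, 12.1% and 21.1%. Outside genes the median distance to one was 11.8 kb, against 8.47 kb for regions called in all 4.

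Members stood next to each other about as often as their share of all union regions. There were 111 pairs of neighbouring members, so that 3.20% of members were followed by another. Members make up 2.85% of all union regions, and in the mirror set 2.85% of regions were followed by another of that set. They formed 107 runs of 2 and 2 runs of 3. One run of 3 lay on chromosome 1 near n-R5s209, where the middle region had folds of 5.75 in posterior trunk, 4.13 in brain and 4.99 in proximal forelimb. The other lay beside Gria1, a glutamate receptor subunit gene, with proximal forelimb folds of 4.25, 3.77 and 2.80. The region that followed a member was called in all 4 tissues in 42.0% of cases, against 48.5% after a region called in all 4. Among all 121759 union regions 51657 were called in all 4, a share near the 42.0% after a member.

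By count, the gene span with most members was that of the immunoglobulin light chain locus Igk, a very long one of 3171 kb. It held 6 among 77 union regions, which is 15.0% of those called in the other 3 tissues against 6.29% over all regions, with 4 missing from proximal forelimb only. At the strongest of them by posterior trunk fold, from 68201443 to 68201918 on chromosome 6, the pileup was 113 reads in posterior trunk, 40 in brain and 17 in proximal forelimb. Auts2, a gene of neuronal development, held 5 among 80 (15.6%), with 6 missing from proximal forelimb only. Dpp6, which encodes a partner of potassium channels, held 5 among 43 (20%), with 1 missing from proximal forelimb only. Proximal forelimb folds of the Dpp6 members ran from 3.34 to 3.79. Thsd7b also held 5, among 29 union regions (38.5%). These spans were taken for their counts, so high shares follow from the choice. In proximal forelimb the Igk members ranked at percentiles from 4.94 to 30.6, and those of Auts2 from 7.49 to 30.4.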

How the data were processed

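CTCF ChIP-seq peak lists of posterior trunk, brain, distal forelimb and proximal forelimb were used, 1 library each, grouped by the tissue in the labels. The submitters' processing notes list MACS2 2.1.1.20160309, SAMtools 1.9, Bowtie2 2.3.5 and cutadapt 1.16 with the build mm10. Settings and any control library: not given in the sources used here. Each peak deposited by the authors has a fold (the ratio of summit pileup to local background, with a pseudocount of 1), −log10 p and −log10 q values, a score that is 10 times the −log10 q in at least 99.98% of rows, and a summit offset. Each library has its own list. The weakest q was near 0.05 in each list.

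Rows with the same interval were merged, leaving 106662, 74127, 64793 and 63873 peaks in the order above. Fold and p together gave back each whole pileup and its background, missing the deposited −log10 p by 0.000309 or less. The absolute depth is unknown. The lowest background of a list (9.34, 8.53, 4.23 and 4.58) set its relative depth. Coordinates are 1-based. Gene spans and promoter sequences came from RefSeq tables of GRCm38.p6, and all 274 listed genes were matched. The promoter table has no window on chromosome 18. The tables give no exons, so exon, intron and UTR positions were not analysed here. The work was done in Python 3.11.15 with pandas 2.3.3, scipy 1.17.1, numpy 2.4.6 and matplotlib 3.10.9. The recovery of pileups and the joining of peaks into regions with their tissue pattern were tested on simulated data. The other steps were not.

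No test was run across libraries. Alternatives were stricter thresholds, depth scaling, lists of equal length, other joining rules and other windows. The members and gene lists were chosen with earlier results of these data known. Named regions are the 20 members with the highest lowest percentile, up to 4 genes per list, 8 promoter members, the longest runs, every Hox cluster member and the 3 genes holding most members. Thsd7b and the promoters of Gpr3, Tsga10, E130308A19Rik, Kiz and Ascc2 were picked after values or matches were seen.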

Additional observations from a re-analysis of the deposited data

Results flagged for a closer look

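Outside chromosomes 1 to 19, X and Y, which the counts do not use, 5 further regions were called in posterior trunk, brain and proximal forelimb and not in distal forelimb, 1 of them mitochondrial, among 139 union regions there. A signal in data that the comparisons leave out is why they are listed. On the same sequence 6 regions lacked proximal forelimb only and 57 were called in all 4 tissues. No control library was at hand to set beside them.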

How the results depend on the processing

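No paired analysis was possible because there was a single library for every tissue. The number of regions missing from distal forelimb only depended on the threshold and on depth. With −log10 q of at least 5 in the holding lists it was 1826 (1938 for the mirror set), and the share lacked by distal forelimb was 3.59%. With pileups scaled to the shallowest list and −log10 p of at least 5 it was 1872 and 3.70%, of which 1714 were among the members, against 2362 in the mirror set. With lists of equal length it was 1871 and 3.69%, against 2081. With −log10 q of at least 5 in all lists it was 3080 and 6.06%, of which 1826 were members. A common −log10 p of at least 5, chosen after seeing the data, gave 3300 and 6.09%. The median percentiles in posterior trunk, brain and proximal forelimb became 49.5, 30.5 and 22.7 with the stricter q in the holding lists, and 51.0, 33.1 and 20.4 with scaling. With the stricter q the nearest distal forelimb peak lay at a median of 8.29 kb and the summits spread over 29 bases. Within 5 kb of a gene end lay 36.0% of members. The longer consensus was in 8.72% of windows, 100 kb windows held 120 members, and the call chance reached 0.95 for 1293 members from the brain pileup. With depth read from the median excess ratio at regions called in all 4, it did so for 1844 members from the brain pileup. Members per gene list moved by more than 1.5 times for 6 of 11 lists under each of the 2 list settings. The shares inside genes stayed between 63.0% and 63.8%. The mirror set was the larger under every setting run. The depth of each library is known only relative to the others, and no result has a replicate.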
